A study of Arabidopsis thaliana with 18 samples.

Results

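The transcripts described here gave some of the strongest signals in sorted root hair cells of Arabidopsis thaliana and differed between genotypes by less than a set limit. They were chosen from the measurements. Mean log2 values were taken per genotype over 3 arrays. Among probe sets annotated to 1 gene whose highest and lowest of the 6 genotype means lay less than 1.5 apart on the log2 scale, the 150 with the highest mean in WT were taken. Genes for ribosomal proteins, peroxidases, pectin-modifying enzymes and GDSL enzymes, genes with EXPA or XTH symbols and organelle genes were then left out. This removed 13 of the 150: 8 peroxidases, 3 genes by their symbols (EXPA18, EXPA7 and XTH19), 1 pectin-modifying gene and 1 ribosomal protein gene. The remaining 137 members came from 13513 probe sets annotated to 1 gene and from 22746 probe sets in all. Each member was a different gene.

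RNA was hybridised to Affymetrix ATH1 arrays, a microarray on which each gene is read by a set of short probes. There were 6 genotypes with 3 arrays each, 18 in all. GTL1ox plants carried pEXPA7:GTL1-GFP and DF1ox plants carried pEXPA7:DF1-GFP. The gtl1-1 mutant (gtl1), the df1-1 mutant (df1), the double mutant gtl1-1 df1-1 (gtl1df1) and the wild type (WT) carried pEXPA7:NLS-GFP. GTL1 and DF1 are transcription factors of the trihelix family. All plants were in the Columbia-0 background, and roots of 5-day-old seedlings were made into protoplasts from which GFP-positive cells were sorted. The EXPA7 promoter is active in root hair cells, so both transgenes and the marker mark that cell type only, and the overexpression lines were sorted on the transgene's own fluorescence. The study asked which genes respond to a gain or a loss of GTL1 and DF1 in these cells. The study's methods speak of 3 biological replicates, without saying what set them apart.

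A root hair is a long outgrowth of a single epidermal cell that elongates at its tip. Its growth rests on the delivery of wall polymers and membrane to the tip by a cytoskeleton of actin and microtubules, on turgor kept up by the vacuole, and on ATP and sugar precursors from central metabolism. Signals at the cell surface, such as secreted peptides and receptor kinases, steer this growth. In bulk RNA of sorted cells, fewer cells of a type and less RNA per cell cannot be told apart.

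The labels were checked first. DF1 gave log2 values of 14.30, 14.09 and 14.24 in DF1ox, 3.74, 3.30 and 3.30 in df1 and 4.0, 3.41 and 5.03 in gtl1df1, against 7.23, 7.26 and 7.57 in WT. The level of DF1 in DF1ox was above, and that in both lines with the df1-1 allele below, every WT array. The transcript of GTL1 was not analysed here, since no probe set in the annotation used was paired with it. EXPA7, whose promoter marked the sorted cells, averaged 13.27 in GTL1ox, 13.22 in DF1ox, 13.11 in gtl1, 13.11 in df1, 12.90 in gtl1df1 and 13.13 in WT. Of 12 listed root hair markers 3 could be measured, EXPA7, EXPA18 and XTH26, and all were detected. EXPA18 averaged 12.83 in GTL1ox, against 14.28 in WT, and XTH26 averaged 9.47 in GTL1ox, against 11.72 in WT. Both were lowest in GTL1ox, and their part in the results was not tested. None of the listed markers of hairless epidermis, cortex and endodermis, stele, root cap or photosynthetic cells was paired with a probe set here, so cells of other types could not be counted out.

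One property of the arrays ran with the genotypes. BioB, a transcript spiked into the hybridisation as a control, averaged 7.57 in gtl1, 7.99 in df1 and 7.19 in gtl1df1, whereas it averaged 2.65 in GTL1ox, 2.87 in DF1ox and 2.56 in WT. The labels also state that RNA of 6 arrays was amplified in 2 cycles and that of the others in 1, without saying which. For mutants against WT, and for overexpression lines against gtl1df1, this difference between arrays and the genotype cannot be told apart. GTL1ox and DF1ox against WT were compared among arrays with low BioB, near the lowest value on the arrays (2.22). BioC, a second such control, averaged 6.33 in GTL1ox, 7.51 in DF1ox and 6.51 in WT. In the mutants BioC averaged 8.83 in gtl1, 9.33 in df1 and 8.48 in gtl1df1. For DF1ox against WT, the difference in BioC and the genotype cannot be told apart. Because the 6 arrays amplified in 2 cycles are not named, a part of amplification cannot be told apart from genotype in any comparison. This includes GTL1ox against WT.

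Members ranged from 12.15 to 14.72 in their WT mean, with a median of 12.74, whereas the median of all probe sets was 3.10. A probe set's signal depends on its probes as well as on the RNA, so this order is one of signal and not of transcript number. On single arrays the members lay between 10.82 and 14.94, and 136 of 137 stayed above 11 on every array. The highest value of any probe set was 15.20. WT means were 13 or more for 46 members and 14 or more for 4. Only 35 members had a gene symbol, while 102 were known by a locus code alone in the annotation used. No function is given here for members with only that code, except AT1G54410, AT4G02620, AT2G46140 and AT2G44060, for which a further name was listed.

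The range of the 6 genotype means, which the rule limited, was 0.07 to 1.36 with a median of 0.43, against 0.37 over all probe sets, most of which had little signal. It was under 0.25 for 30 members, under 0.5 for 85 and under 1 for 125, and 12 members had a range of 1 or more. The SD between arrays of a genotype had a median of 0.091 over the members, from 0.034 to 0.25, against 0.126 over all probe sets. Among probe sets with 1 gene, the median range was 0.47 where the WT mean was 13 or more and 0.46 between 12 and 13. It was 0.71 between 10 and 12, 0.80 between 8 and 10, 0.96 between 6 and 8 and 1.02 between 4 and 6. Ranges near the bottom of the scale, with a median of 0.08 between 2 and 4, belonged to transcripts with little or no signal. The highest of these classes consist mostly of members, 46 of 60 probe sets at 13 or more and 91 of 123 between 12 and 13.

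**Figure D1:**
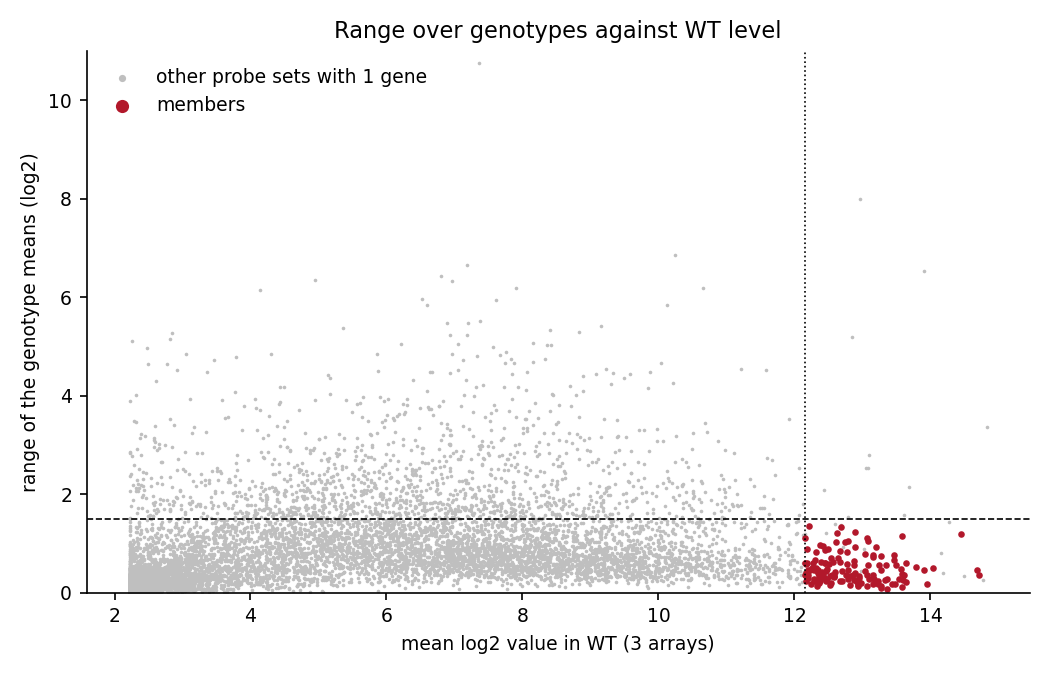
Range of the 6 genotype means (log2, vertical axis) against the WT mean (log2, horizontal axis) for every probe set with 1 gene, in grey, and the 137 members, in red. The dashed line is the limit of 1.5 and the dotted line the lowest WT mean of a member, 12.15; grey points at the lower right are genes left out by family or just beyond a limit.

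At the lower end of WT signal the members AT5G65660 (12.1504) and AT1G47740 (12.1496) lay just inside, and AT1G12310 (12.1426) and AT3G02880 (12.1421) just outside. At the limit on the range, AT1G32460 (1.36) and AT1G78260 (1.34) lay just inside, while AT5G19800 (1.53) and the pectin-modifying gene AT5G04960 (1.57) lay just outside. Of 161 probe sets with 1 gene at or above the lowest WT mean taken, 11 had a range of 1.5 or more, and 10 of those were lowest in GTL1ox. They included the metallothionein MT1C (range 3.36), the dehydrin COR47 (2.15), the LIM protein PLIM2b (2.54) and the beta-glucosidase BGLU15 (2.79). A further 227 probe sets of equal or higher WT signal were annotated to no gene (206) or to several (21), and 212 of these had a range under 1.5. The members are thus 137 of 388 probe sets with a WT signal at least this high.

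The choice was repeated with replicate 1, 2 or 3 of every genotype set aside, and the range was then read in the 6 arrays not used to choose. The deposited values had been normalized between arrays, so the arrays set aside were not fully separate. The rule took 138, 138 and 140 genes, of which 132, 136 and 136 were among the 137. In the arrays set aside their median range was 0.46, 0.49 and 0.45, against 0.44, 0.41 and 0.45 in the arrays that chose them. With 1 array per genotype, 137 of 138, 137 of 138 and all 140 still had a range under 1.5, whereas 86.5, 86.7 and 84.4 percent of all probe sets did. The exceptions were AT5G19800, with a range of 1.98 on the arrays of replicate 1, and AT1G78260, with 1.51 on those of replicate 2. The lowest value of any of these genes on an array set aside was 10.85.

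Among the members, AT5G44020 and AT1G54410 gave the strongest signals. AT5G44020 read 14.54, 14.58 and 14.67 in GTL1ox, 14.64, 14.68 and 14.62 in DF1ox, 14.44, 14.54 and 14.63 in gtl1, 14.60, 14.55 and 14.69 in df1, 14.38, 14.37 and 14.30 in gtl1df1 and 14.77, 14.68 and 14.70 in WT. The double mutant arrays lay below all others, by a mean difference from WT of -0.37. AT1G54410, listed as the dehydrin HIRD11, a hydrophilic protein of a family that accumulates under water deficit, had its lowest mean in gtl1df1 (14.28) and its highest in df1 (14.75), against 14.69 in WT. AT2G30930 came next in WT and was the one of the 10 strongest whose GTL1ox arrays stood far from the rest, with 13.41, 13.30 and 13.39 in GTL1ox, against 14.52, 14.42 and 14.41 in WT. Its means in the other genotypes lay between 14.23 and 14.56.

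AT3G48140 and AT5G64400 followed. AT3G48140 averaged 13.89 in GTL1ox, 14.20 in DF1ox, 13.94 in gtl1, 13.74 in df1, 13.69 in gtl1df1 and 14.03 in WT. AT5G64400 was more even, with genotype means between 13.92 and 14.10. The rest of the 10 strongest were RALFL22, JAL34, AT3G52730, AT2G34910 and ZW9. AT3G52730 had a range of 0.21 and ZW9 one of 0.36, while AT2G34910 had one of 0.60, with means of 14.05 in GTL1ox and 13.99 in DF1ox, against 13.64 in WT. These strongest signals were not the steadiest ones.

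**Figure D2:**
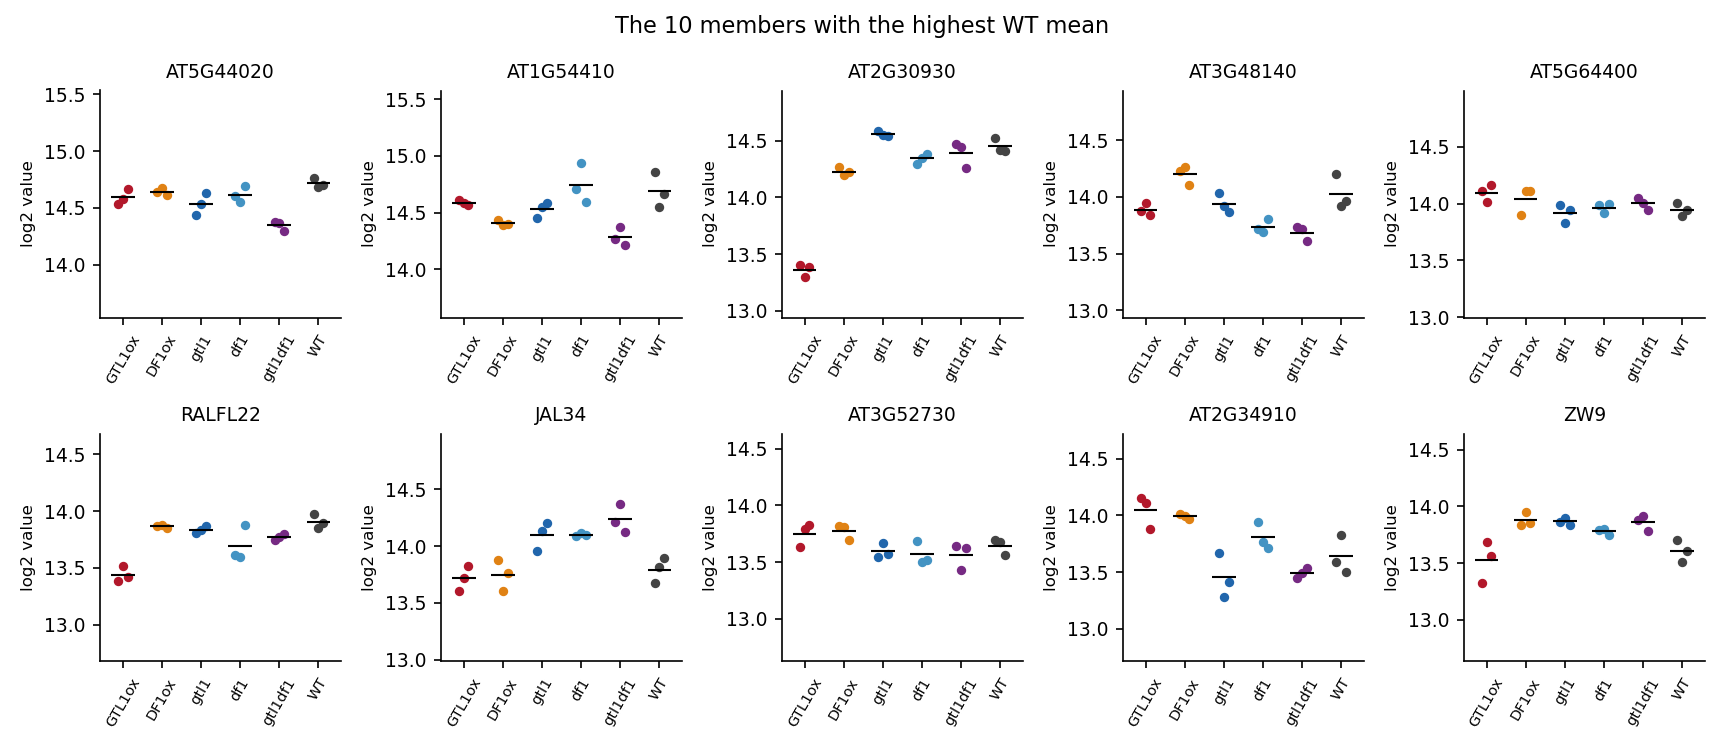
Log2 values on each of the 18 arrays for the 10 members with the highest WT mean, with genotypes along the horizontal axis. Points are arrays, the bar is the mean of 3, and each panel spans 2 log2 units; AT2G30930 in GTL1ox (mean 13.36) lies apart from its other genotypes (14.23 to 14.56).

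Several members are known for roles in root hair growth itself. RALFL22 encodes a small secreted peptide of the RALF-like family, and such peptides act on growth through receptor kinases. It read 13.38, 13.52 and 13.42 in GTL1ox, 13.87, 13.88 and 13.85 in DF1ox, 13.81, 13.83 and 13.87 in gtl1, 13.62, 13.60 and 13.88 in df1, 13.74, 13.77 and 13.80 in gtl1df1 and 13.98, 13.85 and 13.89 in WT. Its GTL1ox arrays lay below the other 15, by a mean of 0.47 against WT. RALFL22 was the only member among 11 RALF-like genes measured, whose median WT mean was 5.09.

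FER encodes FERONIA, the receptor kinase that binds RALF peptides at the cell surface and is needed for normal root hairs. It read 12.11, 12.03 and 11.89 in GTL1ox, 12.64, 12.58 and 12.60 in DF1ox, 12.91, 13.02 and 12.92 in gtl1, 12.66, 12.72 and 12.83 in df1, 12.82, 12.79 and 12.81 in gtl1df1 and 12.43, 12.48 and 12.36 in WT. The 3 mutants lay above WT on every array, by 0.31 to 0.52 in their means, and GTL1ox lay below WT, by 0.42. DF1ox lay 0.18 above WT.

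SCN1 encodes SUPERCENTIPEDE1, a regulator of ROP GTPases that keeps a root hair cell to a single site of outgrowth. It read 13.44, 13.43 and 13.43 in GTL1ox, 13.44, 13.37 and 13.40 in DF1ox, 13.11, 13.09 and 12.92 in gtl1, 13.12, 12.90 and 12.95 in df1, 12.99, 12.82 and 13.08 in gtl1df1 and 13.22, 13.37 and 13.22 in WT. All 9 arrays of the overexpression lines and WT were above all 9 of the mutants. The same split parts arrays of low and high BioB signal, and the 2 cannot be told apart for this gene.

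Wall genes were also among the members. CSLD2, a cellulose synthase-like protein needed for normal root hair walls, averaged 12.40 in GTL1ox, 12.41 in DF1ox, 12.34 in gtl1, 12.32 in df1, 12.24 in gtl1df1 and 12.16 in WT. GH9C1, a glycosyl hydrolase of the family that holds the plant endoglucanases, had a range of 0.15, with its highest mean in DF1ox (13.42), against 13.28 in WT. HRGP1, a hydroxyproline-rich wall glycoprotein, was lowest in GTL1ox (13.32, against 13.57 in WT) and had a range of 0.48. Its probe set, like those of AT1G23720, AT5G06630 and AT4G08410, is of a type that can bind transcripts of related genes, so these 4 values may sum over a family.

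The 4 members named for proteins of the cytoskeleton had lower signal in GTL1ox than in WT. SP1L4 belongs to the SPIRAL1-like family of microtubule-associated proteins. It read 12.59, 12.61 and 12.61 in GTL1ox, 13.75, 13.76 and 13.77 in DF1ox, 13.54, 13.46 and 13.39 in gtl1, 13.41, 13.43 and 13.43 in df1, 13.42, 13.37 and 13.53 in gtl1df1 and 13.63, 13.60 and 13.50 in WT. GTL1ox lay 0.97 below WT and DF1ox 0.19 above it, with no overlap between either line and WT. With a range of 1.16, SP1L4 was near the limit of the rule.

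WLIM1, WLIM2a and WLIM2b encode LIM proteins, which bind and bundle actin filaments. WLIM2a read 12.45, 12.47 and 12.52 in GTL1ox, against 13.19, 13.17 and 13.12 in WT. WLIM2b read 11.81, 11.86 and 11.82 in GTL1ox, against 12.45, 12.47 and 12.41 in WT. WLIM1 read 12.26, 12.15 and 12.26 in GTL1ox, against 12.60, 12.66 and 12.45 in WT. Its lowest mean, however, was in gtl1df1 and not in GTL1ox. WLIM1 differed from WT by -0.572 in gtl1df1, -0.348 in GTL1ox, -0.295 in gtl1, -0.258 in df1 and 0.043 in DF1ox. For the mutants, the split in BioB signal and the genotype cannot be told apart. For all 3 genes the GTL1ox arrays lay below every WT array. The mean over the 3 genes was 12.18 ± 0.02 in GTL1ox, 12.71 ± 0.08 in DF1ox, 12.57 ± 0.07 in gtl1, 12.43 ± 0.05 in df1, 12.42 ± 0.09 in gtl1df1 and 12.72 ± 0.06 in WT (SD, n = 3 each). Among the 5 LIM genes measured these 3 were members, and PLIM2b, which also had a WT signal high enough, was left out by its range. None of 9 listed actin and tubulin genes measured was a member, since their WT means reached no higher than 11.94.

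**Figure D3:**
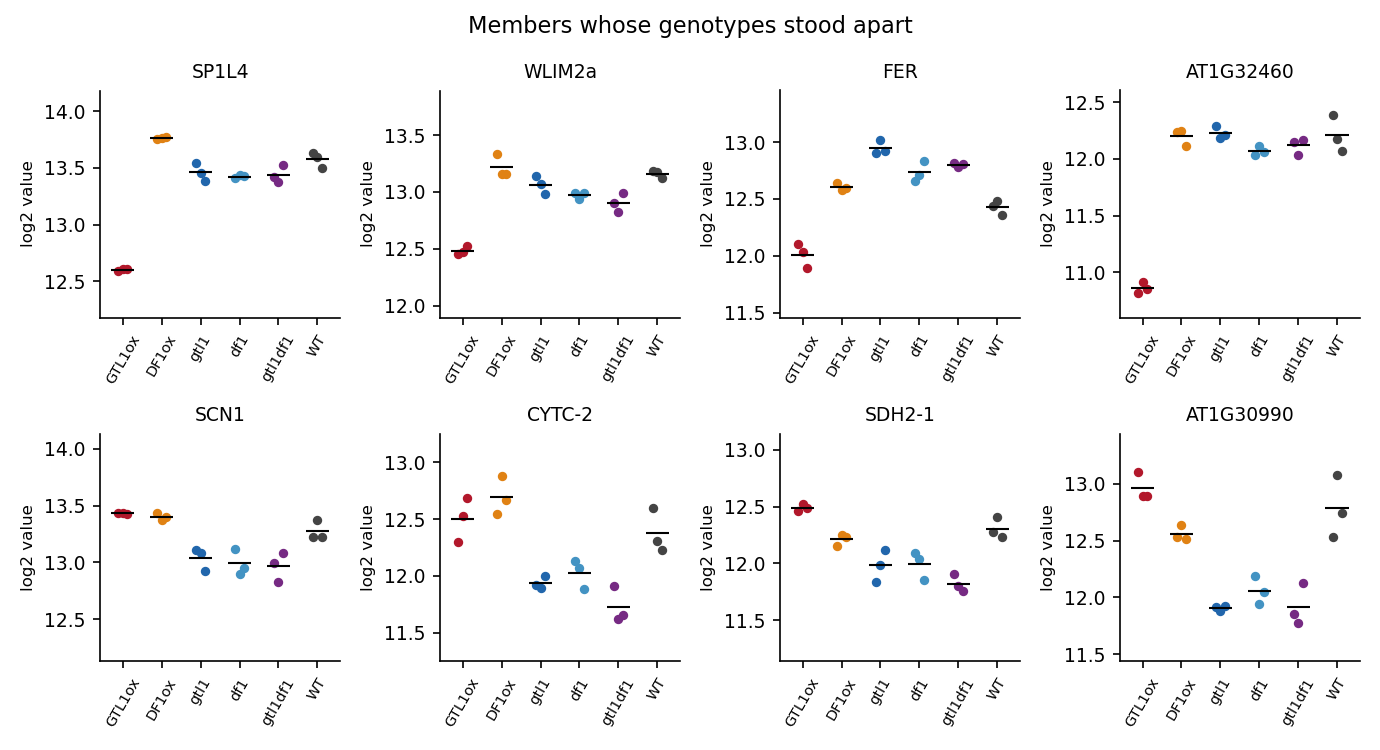
Log2 values on each of the 18 arrays for 8 members, chosen after their values were seen, whose genotypes stood apart. Points are arrays, the bar is the mean of 3, and each panel spans 2 log2 units; SP1L4, WLIM2a, FER and AT1G32460 are lowest in GTL1ox, and SCN1, CYTC-2, SDH2-1 and AT1G30990 are lower in the 3 mutants than in the overexpression lines and WT.

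Of 13 genes measured on a list of cytochrome c and mitochondrial respiratory enzymes, drawn up after the members were known, 7 were members. CYTC-1 and CYTC-2 encode cytochrome c, which carries electrons in the respiratory chain. SDH2-1 is the iron-sulphur subunit of succinate dehydrogenase, FRO1 (FROSTBITE1) is a subunit of complex I, and MPPBETA is the beta subunit of the mitochondrial processing peptidase, which sits in complex III in plants. MAB1 is a subunit of pyruvate dehydrogenase and IDH-V one of isocitrate dehydrogenase. The mean over these 7 genes was 12.70 ± 0.03 in GTL1ox, 12.69 ± 0.01 in DF1ox, 12.37 ± 0.02 in gtl1, 12.34 ± 0.06 in df1, 12.27 ± 0.05 in gtl1df1 and 12.52 ± 0.05 in WT (SD, n = 3 each).

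The arrays of both overexpression lines lay above those of WT, and those of the 3 mutants below them, in this mean. CYTC-2 was the most variable of the 7. It read 12.30, 12.53 and 12.68 in GTL1ox, 12.54, 12.88 and 12.67 in DF1ox, 11.92, 11.89 and 11.995 in gtl1, 12.13, 12.07 and 11.88 in df1, 11.91, 11.62 and 11.65 in gtl1df1 and 12.60, 12.31 and 12.23 in WT. All its mutant arrays lay below the other 9. CYTC-1 read 13.44, 13.27 and 13.51 in GTL1ox and 13.33, 13.34 and 13.31 in DF1ox, against 13.12, 13.09 and 13.02 in WT, with no overlap.

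SDH2-1 read 12.46, 12.52 and 12.48 in GTL1ox, 12.16, 12.25 and 12.23 in DF1ox, 11.84, 11.99 and 12.12 in gtl1, 12.09, 12.04 and 11.85 in df1, 11.90, 11.80 and 11.76 in gtl1df1 and 12.28, 12.41 and 12.23 in WT. A second probe set of SDH2-1 had a WT mean of 2.23, near the lowest values on the arrays, and was not used. AT3G48570 was the other member with a further probe set, whose WT mean of 10.59 compares with 12.18 for the one taken. MPPBETA and FRO1 were steadier, with ranges of 0.21 and 0.30, while MAB1 and IDH-V had ranges of 0.46 and 0.49. For the mutants this pattern follows the split in BioB signal. The differences of the overexpression lines from WT do not cross that split in BioB, though the cycles of amplification of these arrays are not known. DF1ox arrays did, however, have more BioC signal than WT (7.51, against 6.51). For CYTC-1 the differences from WT were 0.33 in GTL1ox and 0.25 in DF1ox. OEP16-3, named after a channel-like protein family of organelle membranes, was likewise higher in both overexpression lines than in the mutants, at 12.47 in GTL1ox, 12.39 in DF1ox, 12.01 in gtl1, 12.08 in df1, 12.05 in gtl1df1 and 12.34 in WT.

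Among enzymes of carbon metabolism, TPI, the cytosolic triose phosphate isomerase of glycolysis, had a range of 0.19 around 13.5, with its highest mean in GTL1ox (13.62) and its lowest in WT (13.44). The other listed genes of carbon metabolism measured, GAPC2 and MDH, were not members. cICDH, the cytosolic NADP-dependent isocitrate dehydrogenase, ranged over 0.28. PMM, a phosphomannomutase on the path to GDP-mannose, varied more. It read 12.74, 12.88 and 12.78 in GTL1ox, 12.76, 12.70 and 12.64 in DF1ox, 12.30, 12.16 and 12.13 in gtl1, 12.13, 11.81 and 11.81 in df1, 12.51, 12.65 and 12.41 in gtl1df1 and 12.45, 12.48 and 12.53 in WT. The single mutants were low while the double mutant overlapped with WT.

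Vacuolar genes included AT4G02620, listed as VHA-F, a subunit of the proton-pumping V-ATPase. It had a range of 0.28, was highest in DF1ox (13.29, against 13.10 in WT) and was 1 of 5 listed proton pump genes measured. TMT1, which loads sugars into the vacuole, read 11.79, 11.97 and 11.86 in GTL1ox, 12.06, 12.33 and 12.27 in DF1ox, 12.71, 12.65 and 12.78 in gtl1, 12.55, 12.61 and 12.55 in df1, 12.49, 12.38 and 12.49 in gtl1df1 and 12.36, 12.33 and 12.25 in WT. APA1, a vacuolar aspartic proteinase, averaged 12.23 in GTL1ox, 12.30 in DF1ox, 12.72 in gtl1, 12.73 in df1, 12.72 in gtl1df1 and 12.32 in WT. Both were higher in all mutant arrays than in all arrays of the overexpression lines and WT, again along the split in BioB. ACYB-2, a cytochrome b561 protein, had a range of 0.34.

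Proteins tied to water deficit and defence made up another share. AT2G46140 and AT2G44060, listed as LEA27 and LEA26 of the late embryogenesis abundant proteins, had ranges of 0.27 and 0.35, and with AT1G54410 they were 3 of 7 such genes measured. The tau-class glutathione transferases GSTU28 and GSTU26, of 11 measured, had WT means of 13.58 and 12.81, whereas the median of the 11 was 3.33. GSTU28 read 13.94, 13.91 and 13.92 in GTL1ox, against 13.42, 13.75 and 13.58 in WT, while GSTU26 had a range of 0.16. PYK10, the beta-glucosidase of root ER bodies, read 11.61, 11.88 and 11.91 in GTL1ox, 12.38, 12.50 and 12.32 in DF1ox, 12.01, 12.23 and 12.08 in gtl1, 12.67, 12.58 and 12.58 in df1, 12, 11.45 and 11.78 in gtl1df1 and 12.37, 12.37 and 12.61 in WT.

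The jacalin-related lectin JAL34 and the Euonymus-type lectin EULS3 were also members. JAL34 averaged 13.72 in GTL1ox, 13.75 in DF1ox, 14.10 in gtl1, 14.10 in df1, 14.24 in gtl1df1 and 13.79 in WT. EULS3 was lowest in gtl1df1 (11.89, against 12.28 in WT). PIA1, a protein phosphatase of the PP2C type, had a range of 0.34. These lectins thus had their lowest means in different genotypes.

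Of the remaining named members, BZIP53, a bZIP transcription factor, read 13.96, 14.14 and 14.03 in GTL1ox and 13.90, 13.96 and 13.88 in df1, against 13.47, 13.69 and 13.33 in WT. UBC28, a ubiquitin-conjugating enzyme, averaged 13.22 in GTL1ox, 13.42 in DF1ox, 12.98 in gtl1, 13.01 in df1, 12.85 in gtl1df1 and 13.24 in WT. It was the one member among 15 listed ubiquitin and proteasome genes measured. SAMDC, the S-adenosylmethionine decarboxylase of polyamine synthesis, was above WT (12.35) in every genotype, by up to 0.40 in df1. FLDH, a farnesol dehydrogenase, had a range of 0.29.

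The steadiest members were known only by locus codes, except GH9C1. AT3G08610 had genotype means of 13.33 to 13.40, a range of 0.07. Ranges of 0.10, 0.12, 0.13, 0.14 and 0.15 were found for AT4G30010, AT5G39570, AT3G10860, AT2G40765 and AT1G51650. AT4G30010 read 13.19, 13.22 and 13.24 in GTL1ox, 13.22, 13.22 and 13.26 in DF1ox, 13.27, 13.22 and 13.29 in gtl1, 13.24, 13.26 and 13.24 in df1, 13.24, 13.13 and 13.14 in gtl1df1 and 13.26, 13.33 and 13.24 in WT. A gene taken as even by the rule cannot be shown by the same arrays to be unaffected. Genes commonly used to normalise quantitative PCR were also read: of 16 listed, 5 were measured and none was a member. Their WT means, 7.05 to 12.02, lay below the lowest of a member (12.15). Their ranges were 0.29 for GAPC2, 0.55 for UBC21, 0.56 for AT4G34270, 0.37 for AT2G28390 and 0.44 for AT4G26410, and all 5 were highest in GTL1ox. The steadiest members were picked by their range on these same arrays. Their smaller ranges therefore do not show that they are steadier than the reference genes.

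**Figure D4:**
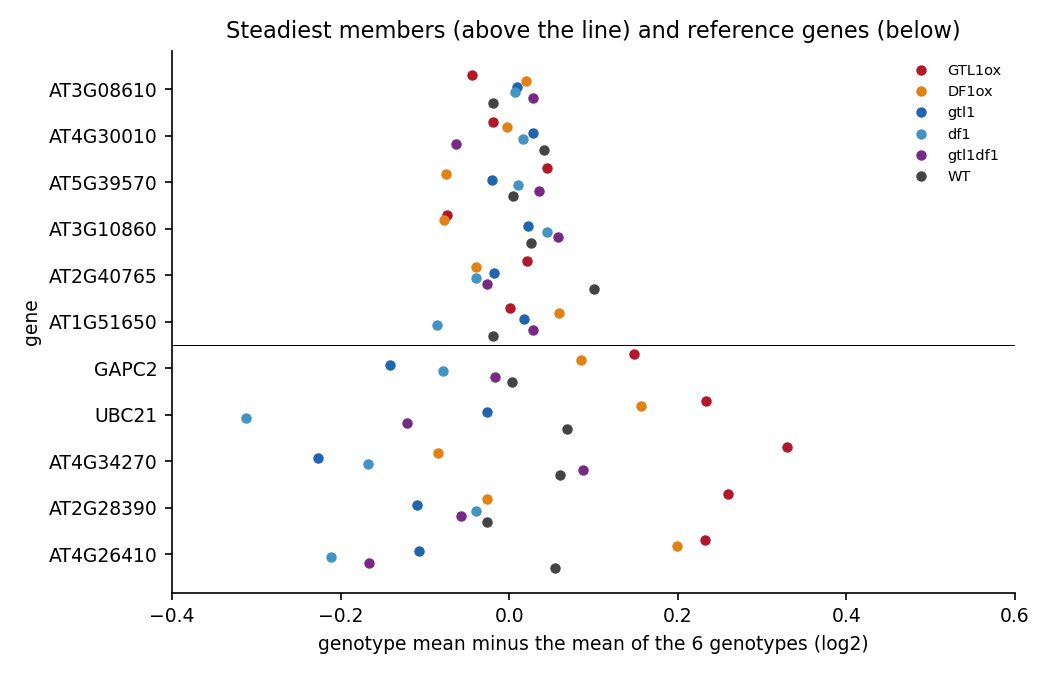
Genotype means of the 6 members with the smallest range (above the line) and of 5 reference genes of quantitative PCR (below it), each as the difference from the gene's mean over the 6 genotypes (log2, horizontal axis). Colours are genotypes, shifted vertically for legibility. The members span 0.07 to 0.15 and the reference genes 0.29 to 0.56, but the members shown were picked by their small range on these arrays.

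The members with the widest range, on the other hand, shared 1 genotype as their lowest. AT1G32460 read 10.82, 10.91 and 10.85 in GTL1ox, 12.24, 12.25 and 12.12 in DF1ox, 12.29, 12.18 and 12.21 in gtl1, 12.04, 12.11 and 12.06 in df1, 12.15, 12.03 and 12.17 in gtl1df1 and 12.38, 12.17 and 12.07 in WT. AT1G78260 (11.34 in GTL1ox, against 12.68 in WT), AT3G54040 (11.65, against 12.89), AT5G24880 (11.62, against 12.63), AT2G30930 and SP1L4 followed, and all 6 were lowest in GTL1ox. Because the rule allowed ranges up to 1.5, genes with larger changes are not seen among the members.

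GTL1ox was the lowest genotype for 41 members (29.9 percent, against 39.5 percent of all probe sets) and the highest for 37 (27.0 percent, against 31.5 percent). DF1ox was lowest for 8 (5.84 percent, against 15.2 percent) and highest for 36 (26.3 percent, against 12.9 percent). The gtl1 mutant was lowest for 16 (11.7 percent, against 9.96 percent) and highest for 21 (15.3 percent, against 12 percent). The df1 mutant was lowest for 32 (23.4 percent, against 13.1 percent) and highest for 15 (10.9 percent, against 15.7 percent). The double mutant was lowest for 30 (21.9 percent, against 11.9 percent) and highest for 15 (10.9 percent, against 14.3 percent). WT was lowest for 10 (7.3 percent, against 10.3 percent) and highest for 13 (9.49 percent, against 13.6 percent). Where genotypes tied, as many probe sets did at the bottom of the scale, the first in this order was counted. Ties thus raised the shares of GTL1ox over all probe sets and could lower those of genotypes later in the order, by amounts not measured. For no genotype can the shares among members be set against those over all probe sets. All 3 GTL1ox arrays lay below the other 15 for 23 members (16.8 percent, against 5.17 percent of all probe sets) and above them for 6 (4.38 percent, against 9.43 percent). Most other probe sets had little signal, and these shares were not compared among probe sets of like signal. The members below included the cytoskeletal genes SP1L4, WLIM2a and WLIM2b, the surface proteins FER and RALFL22, HRGP1 and TMT1. Those above were GSTU28, SDH2-1 and the locus codes AT2G20760, AT2G27730, AT3G44190 and AT3G15640. AT3G44190 read 13.70, 13.51 and 13.70 in GTL1ox, against 12.67, 12.71 and 12.44 in WT, the highest positive difference of a member from WT in that line.

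Along the first principal component of the members' values, which held 47.3 percent of their variance, the GTL1ox arrays scored 3.41 to 3.71 and the other arrays no higher than 0.48. The second component held 20.9 percent. Member genes did not move as a block: over the 6 genotype means the median correlation of 9316 pairs of members was 0.07, with 8.94 percent of pairs above 0.8 and 5.35 percent below -0.8. All these points share the same 6 means, so the values describe the members only.

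All 9 arrays of GTL1ox, DF1ox and WT lay above all 9 mutant arrays for 9 members (6.57 percent, against 2.24 percent of all probe sets) and below them for 7 (5.11 percent, against 1.21 percent). Those above were SCN1, CYTC-2, SDH2-1, OEP16-3, ACYB-2, AT4G02580, AT1G30990, AT3G05920 and AT3G12260. Those below were JAL34, FER, SAMDC, APA1, TMT1, AT3G19390 and AT5G26260. AT1G30990 had the widest gap: it read 13.11, 12.89 and 12.89 in GTL1ox, 12.53, 12.64 and 12.52 in DF1ox, 11.92, 11.88 and 11.93 in gtl1, 12.19, 11.94 and 12.05 in df1, 11.86, 11.77 and 12.13 in gtl1df1 and 12.53, 13.08 and 12.74 in WT. The mutants and the high BioB signal cannot be told apart in any of these 16 genes. The shares over all probe sets include many with little signal, and probe sets of like signal were not compared.

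The 7 comparisons of the design were fitted with limma over all 22746 probe sets, with probe sets called where the adjusted p was under 0.05. The genotype means that chose the members enter each of these comparisons, so the counts are a description. In GTL1ox against gtl1df1, 82 members (59.9 percent) were called, 43 higher and 39 lower, where 29.3 percent of all probe sets were (17.7 percent higher, 11.6 percent lower). In DF1ox against gtl1df1, 59 members (43.1 percent) were called, 45 higher and 14 lower, against 20.8 percent of all probe sets (10.3 percent higher, 10.5 percent lower). Few of these differences were large: 6 members passed 2-fold in the first comparison and none in the second. Most other probe sets had little signal. Among probe sets whose mean over all arrays exceeded the median, fitted alone, 76 members (55.5 percent) were called in GTL1ox and 54 (39.4 percent) in DF1ox against gtl1df1, where 57.5 and 44.0 percent of those probe sets were. The higher share of calls among members was thus not seen among detected probe sets. The standard error of a difference had a median of 0.073 for members and 0.101 for all.

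Against WT, GTL1ox had 55 members called (40.1 percent, background 24.5 percent), 21 higher and 34 lower (background 14.9 and 9.65 percent). DF1ox had 18 called (13.1 percent, background 8.04 percent), 11 higher and 7 lower (background 3.86 and 4.18 percent). This count was 7 without WT replicate 3 (5.11 percent, background 5.55 percent), all of them lower. It was 11 without any 1 DF1ox array (8.03 percent, background 5.52 to 6.42 percent). After quantile normalization it was 11 (8.03 percent, background 8.33 percent), 3 higher and 8 lower. The gtl1 mutant had 23 called (16.8 percent, background 11.8 percent), 10 higher and 13 lower (background 5.24 and 6.54 percent). That count was 11 without gtl1 replicate 2 (8.03 percent, background 8.12 percent) and 13 without WT replicate 2 (9.49 percent, background 10.4 percent). The df1 mutant had 46 called (33.6 percent, background 17.6 percent), 14 higher and 32 lower (background 7.54 and 10 percent). That count was 26 without df1 replicate 2 (19.0 percent, background 11.6 percent). The double mutant had 37 called (27.0 percent, background 14.7 percent), 11 higher and 26 lower (background 6.77 and 7.92 percent). Among probe sets whose mean over all arrays exceeded the median, the share of members called was below the background in each of these comparisons: 35 against 48.8 percent in GTL1ox, 11.7 against 20.9 percent in DF1ox, 16.1 against 28.7 percent in gtl1, 30.7 against 37.9 percent in df1 and 25.5 against 33.0 percent in gtl1df1. When only the arrays of the 2 genotypes compared were fitted, the limma counts were 29 in GTL1ox (background 12.7 percent), 0 in DF1ox (0.343 percent), 2 in gtl1 (0.55 percent), 4 in df1 (1.46 percent) and 12 in gtl1df1 (4.35 percent). In DF1ox 46 members then had an unadjusted p under 0.05. These 5 comparisons share the WT arrays.

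The median difference of the members was 0.10 in GTL1ox and 0.10 in DF1ox against gtl1df1. Against WT it was -0.01 in GTL1ox, 0.06 in DF1ox, -0.02 in gtl1, -0.07 in df1 and -0.08 in gtl1df1, where the median over all probe sets was 0 throughout. Against WT, 6 members passed 2-fold in GTL1ox and none in the other 4 genotypes. The lowest differences from WT were -1.35 in GTL1ox (AT1G32460), -0.60 in DF1ox (AT1G52660), -0.87 in gtl1, -0.72 in df1 and -0.87 in gtl1df1 (AT1G30990 in all 3 mutants). The highest were 1.03 in GTL1ox (AT3G44190), 0.42 in DF1ox (AT2G23120), 0.52 in gtl1 (FER), 0.94 in df1 (AT5G54940) and 0.79 in gtl1df1 (AT1G04040).

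**Figure D5:**
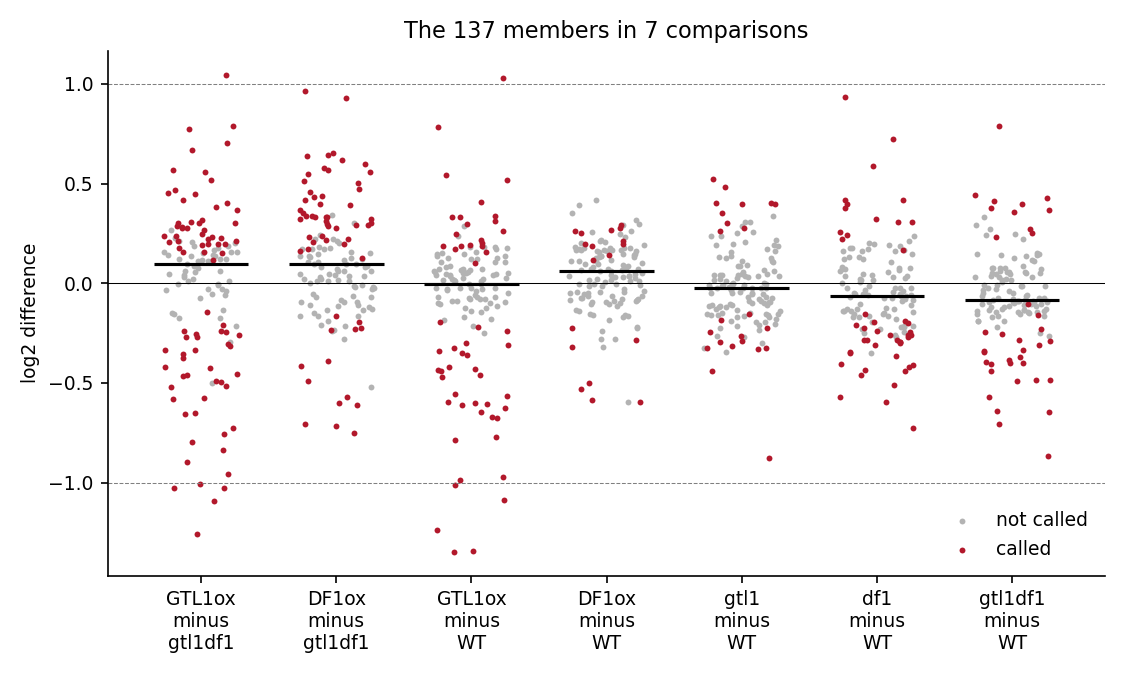
Log2 difference of each of the 137 members (vertical axis) in the 7 comparisons, the first genotype named minus the second. Red points were called by limma at an adjusted p under 0.05, black bars are medians, and dashed lines mark 2-fold; the 6 members beyond 2-fold in GTL1ox against WT are 5 lower ones and AT3G44190.

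AT5G54940 and AT1G04040 stood out in 1 mutant each. AT5G54940 read 14.19, 14.14 and 14.07 in df1, against 13.30, 13.28 and 13.02 in WT. AT1G04040 read 13.78, 13.93 and 13.88 in gtl1df1, against 12.74, 13.46 and 13.03 in WT. It also had the largest SD between arrays of a genotype (0.25), followed by AT3G43960 (0.24), AT2G23120 (0.16) and AT5G54940 (0.16). For AT3G43960 the 3 WT arrays read 12.19, 13.05 and 12.75, a spread that covers every other genotype mean but that of DF1ox (12.07).

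WT replicate 3 differed from the other WT arrays over many probe sets, with 1857 of 22746 higher by over 0.5 and 570 lower by over 0.5. No member did so in either direction, and the members' median difference was -0.06. The members other than RALFL22, which the RefSeq table did not place, lay on all 5 chromosomes, with 30, 26, 40, 18 and 22 on chromosomes 1 to 5. These were 22.1, 19.1, 29.4, 13.2 and 16.2 percent of the members placed, against 25.8, 16.5, 20.5, 14.7 and 22.5 percent of all probe sets with 1 gene. AT1G70770 and AT1G70780 were direct neighbours, and AT1G67330 and AT1G67350 had 1 protein-coding gene between them.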

How the data were processed

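Sorted root hair cells of 6 genotypes were measured on 3 arrays each. The authors deposited 1 table of log2 values per probe set, made with the gcRMA method in R, which corrects background with probe sequence, normalizes between arrays and summarises probes. Scanner files were not used here. Depth has no meaning for arrays, and precision is limited by 3 arrays per genotype. No test included the 64 control probe sets. Genes came from the platform annotation, updated through the RefSeq table of the TAIR10.1 assembly. Of the probe sets, 13513 had 1 gene, 503 several and 8730 none. Left-out families were found by symbol, synonym or a list of locus codes. The members and all lists were chosen with earlier results of these data known. Of the role lists, 17 were named with the design and 8 were drawn up after the members were known. Among the latter were those of LIM, late embryogenesis abundant, tau-class, RALF-like and lectin genes, so shares of members in them are no result. Named genes were the 10 strongest, the 6 steadiest and 6 most variable members, those at each threshold, the 4 largest SDs between arrays and up to 4 per role.

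Differences were fitted with limma 3.58.1 in R 4.3.3, with all 18 arrays, 1 mean per genotype, empirical Bayes moderation and Benjamini-Hochberg adjustment over 22746 probe sets. The fit was tested on simulated data. Alternatives were the compared arrays alone, quantile normalization, a filter on dim probe sets, a replicate block, an intensity trend, leaving out single arrays and other forms of the rule. Tables were handled in Python 3.11.15 with pandas 2.3.3.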

Additional observations from a re-analysis of the deposited data

Results flagged for a closer look

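In 5 members every array of 1 genotype lay above all WT arrays while every array of another lay below them. The difference between such genotypes was not tested. For GTL1ox and DF1ox this held for 4 of 137 members (2.92 percent) and for 289 of 22746 probe sets (1.27 percent). SP1L4 was 0.97 below WT in GTL1ox and 0.19 above it in DF1ox, so that GTL1ox minus DF1ox was -1.16. FER was 0.42 below WT in GTL1ox and 0.18 above it in DF1ox (GTL1ox minus DF1ox, -0.60). AT1G47740 was 0.24 below and 0.16 above WT in the same lines (-0.40). AT2G20760 was 0.19 above WT in GTL1ox and 0.09 below it in DF1ox (0.28). Its difference in DF1ox was not called by limma, and the highest DF1ox array (12.7492) lay just under the lowest WT array (12.7516). For gtl1 and df1 the pattern held for 1 member (0.73 percent) and for 106 probe sets (0.466 percent). This member, AT2G30930, was 0.11 above WT in gtl1 and 0.11 below it in df1, a difference of 0.21. Neither of its differences from WT was called by limma. Most probe sets had little signal, and the shares were not compared among probe sets of like signal.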

How the results depend on the processing

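The number of members stayed between 136 and 150 under other forms of the rule, and 125 to 137 of the original 137 were among them. Leaving out a replicate of every genotype gave 138 to 140. The median range of the genotype means stayed between 0.41 and 0.44 without single replicates, and the median SD between arrays was 0.093 without WT replicate 3.

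Counts of members called fell most when only the arrays compared were fitted: 29 in GTL1ox against WT, 0 in DF1ox (46 at an unadjusted p under 0.05 in limma), 2 in gtl1, 4 in df1 and 12 in gtl1df1. In that order, the members' shares were 21.2, 0, 1.46, 2.92 and 8.76 percent. Those of all probe sets were 12.7, 0.343, 0.55, 1.46 and 4.35 percent. Quantile normalization gave 11 in DF1ox against WT (8.03 percent, background 8.33 percent). It moved the median difference of the members to 0.063 in DF1ox against gtl1df1, and to 0.021 in GTL1ox and 0.028 in DF1ox against WT. The cause was not tested. The filter on dim probe sets and the intensity trend kept every count within 1.5 times. The filter raised the share of all probe sets called, however, to 57.5 percent in GTL1ox and 44.0 percent in DF1ox against gtl1df1 and to 48.8, 20.9, 28.7, 37.9 and 33.0 percent in GTL1ox, DF1ox, gtl1, df1 and gtl1df1 against WT, above the members' share in all 7 comparisons.

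Leaving out single arrays gave 66 to 73 members called in GTL1ox and 48 to 58 in DF1ox against gtl1df1. Against WT it gave 47 to 53 in GTL1ox (34.3 to 38.7 percent, background 20.8 to 24.4 percent). It gave 7 to 26 in DF1ox (5.11 to 19.0 percent, background 5.52 to 10.5 percent) and 11 to 25 in gtl1 (8.03 to 18.2 percent, background 7.87 to 13.9 percent). The df1 counts were 26 to 41 (19.0 to 29.9 percent, background 11.6 to 18.6 percent) and those of gtl1df1 27 to 39 (19.7 to 28.5 percent, background 10.7 to 14.4 percent). The members' share was below the background in DF1ox without WT replicate 3, and in gtl1 without gtl1 replicate 2 or WT replicate 2. The median difference ranged from 0.066 to 0.095 in GTL1ox and from 0.072 to 0.128 in DF1ox against gtl1df1. Against WT it ranged from -0.011 to 0.020 in GTL1ox, 0.030 to 0.074 in DF1ox, -0.055 to -0.023 in gtl1, -0.094 to -0.048 in df1 and -0.107 to -0.053 in gtl1df1.

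Arrays of different genotypes shared only a number. In none of the 7 comparisons did every same-numbered pair correlate above 0.1, and the highest correlation was 0.26. In GTL1ox against WT, 6 of 6 arrays correlated best with their own number, a hint from the data and not from the design. With the replicate number as a block the counts were 79 and 59 in GTL1ox and DF1ox against gtl1df1, and 54, 21, 22, 46 and 39 in GTL1ox, DF1ox, gtl1, df1 and gtl1df1 against WT. The promoter motif search planned for the members was not run.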
